A study of Mus musculus with 4 samples.

Results

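The placental cathepsin genes lie side by side on mouse chromosome 13, and their H3K9me3 was described in cultured muscle stem cells with and without Setdb1. The genes were chosen by name and number 10 of 21887 protein-coding genes on the main chromosomes. They are Ctsll3, Ctsj, Ctsq, Ctsr, Cts6, Cts8, Cts7, Ctsm and Cts3, which form the cluster, and Ctsl, which lies apart from it. The choice was made with the peak lists known, because the bin of largest gain in the genome lies over Ctsr and Cts6. The coverage differences below are therefore a description and were not tested.

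The method was sequencing of chromatin pulled down without crosslinking by an antibody to H3K9me3, a mark found on silenced DNA. Cells given 4-hydroxytamoxifen for 72 h (the deleted list of peaks) carried a genotype written as Setdb1lox/lox;Pax7GakaCreERT3, and cells given ethanol (the control list) one written as Setdb1lox/lox;Pax7GakaCreERT2. The last digit of the genotype differs in each of the 4 samples of the series, and both cultures are taken here to carry loxP-flanked Setdb1 and an inducible Cre under Pax7. Both were muscle stem cells isolated by magnetic sorting and grown in culture. A Cre under Pax7 would be made only in cells that express Pax7, and in which cells it acted is unknown here. Each condition had 1 H3K9me3 library, which means that no difference has a replicate check and no p-value was computed. The input libraries were not analysed here. Age and sex of the mice, any pooling of animals and the extent of deletion are unknown here. A histone mark does not measure expression, so the labelled cell type could not be checked by its markers. No window peak in either list was found for 64.6% of all protein-coding genes. The windows of Pax7, Myod1, Myf5, Myog and Des likewise had no peak in either list. Those of the trophoblast regulators Cdx2, Eomes, Gcm1 and Hand1 had none either. The window of Elf5, another such regulator, was covered at 0% in the deleted list and 0.540% in the control list. Other trophoblast markers varied. The Prl3d1 window was covered at 14.4% in the deleted list and 15.1% in the control list, and that of Tpbpa at 10.4% and 18.9%. The Prl2c2 window had no peak in either list.

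Cathepsins of the papain family are cysteine proteases that cut proteins mainly in lysosomes. Ctsl is made in many tissues, whereas rodents carry an array of related genes that arose by duplication and are active chiefly in the placenta. Ctsq marks giant cells of the trophoblast that line maternal blood sinusoids, and Cts7 and Cts8 have been linked to invasion by trophoblast giant cells. Setdb1 encodes an enzyme that adds methyl groups to lysine 9 of histone H3, often where KRAB zinc finger proteins bind repeated DNA.

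All 10 genes lie on the minus strand of build mm10, whose chromosomes are those of the RefSeq table used (GRCm38.p6). The cluster was taken as chr13:60793250-61575170, which is the span of the 9 placental members with 5 kb added at both ends, or 781.9 kb. Ctsll3 stands at its lower edge (chr13:60798250-60802844) and Cts3 at its upper edge (chr13:61564630-61570170). Ctsl lies farther up, at chr13:64361890-64370772, and 2782 kb separate its window from the cluster. Deleted-list peaks that met the cluster numbered 131 of 113503, and control-list peaks 130 of 105709.

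The promoter sequences of 5 genes are shown because they differ in whether a peak covers them. In the deleted list alone, peaks covered the promoters of Ctsr and Cts6. The promoter of Ctsm was covered in the control list alone, that of Cts3 in both lists and that of Ctsl in neither. Each line runs 5′ to 3′ on the gene's strand, from 250 bases before to 50 bases after the start given in the RefSeq promoter table (GRCm38.p6). For Ctsl that start lies 252 bases inside the outer end of the gene, so the Ctsl window lies wholly within the gene, and for Ctsm and Cts3 it lies 44 and 43 bases inside. Capitals mark, on either strand, the 4 short motifs found in placental promoters, whose letters are given with their counts. The windows are chr13:61164139-61164438 for Ctsr, chr13:61203343-61203642 for Cts6, chr13:61541790-61542089 for Ctsm, chr13:61570078-61570377 for Cts3 and chr13:64370471-64370770 for Ctsl.
Ctsr: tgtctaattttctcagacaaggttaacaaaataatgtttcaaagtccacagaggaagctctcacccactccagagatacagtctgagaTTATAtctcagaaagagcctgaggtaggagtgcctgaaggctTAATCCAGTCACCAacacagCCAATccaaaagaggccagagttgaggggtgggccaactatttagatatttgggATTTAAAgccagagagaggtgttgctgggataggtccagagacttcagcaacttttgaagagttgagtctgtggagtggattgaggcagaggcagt
Cts6: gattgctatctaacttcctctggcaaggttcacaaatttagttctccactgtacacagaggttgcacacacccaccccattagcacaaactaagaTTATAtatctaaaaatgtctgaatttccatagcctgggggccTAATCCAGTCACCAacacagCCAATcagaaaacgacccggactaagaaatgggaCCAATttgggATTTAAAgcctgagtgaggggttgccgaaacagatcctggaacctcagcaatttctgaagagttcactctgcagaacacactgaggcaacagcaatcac
Ctsm: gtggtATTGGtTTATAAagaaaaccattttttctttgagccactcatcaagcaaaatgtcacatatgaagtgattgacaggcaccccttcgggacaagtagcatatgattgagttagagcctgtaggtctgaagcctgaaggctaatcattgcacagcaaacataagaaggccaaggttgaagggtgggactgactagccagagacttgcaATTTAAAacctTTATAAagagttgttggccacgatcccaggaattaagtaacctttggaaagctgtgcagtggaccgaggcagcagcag
Cts3: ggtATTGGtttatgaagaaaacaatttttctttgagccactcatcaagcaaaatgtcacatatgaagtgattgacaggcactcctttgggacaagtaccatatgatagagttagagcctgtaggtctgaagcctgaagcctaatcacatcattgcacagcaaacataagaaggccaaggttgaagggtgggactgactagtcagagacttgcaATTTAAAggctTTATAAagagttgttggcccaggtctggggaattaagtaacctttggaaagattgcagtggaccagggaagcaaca
Ctsl: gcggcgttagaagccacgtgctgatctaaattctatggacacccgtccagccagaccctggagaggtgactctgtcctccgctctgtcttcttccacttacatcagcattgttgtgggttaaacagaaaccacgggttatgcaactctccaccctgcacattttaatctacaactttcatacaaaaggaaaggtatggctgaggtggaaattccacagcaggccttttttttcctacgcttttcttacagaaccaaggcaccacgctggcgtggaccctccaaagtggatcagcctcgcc

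The promoters of the placental members resembled one another in part and were poor in CpG. Each held 0 to 3 CpG dinucleotides in 300 bases, against a median of 13 over 21263 promoters of protein-coding genes. Ctsm and Cts3 were the closest pair, with 89.8% identity over their alignment. The median of the 36 pairs of placental members was 54.6%, with Ctsr and Cts6 at 66.1%, and the 9 pairs with Ctsl lay between 44.3% and 47.9%. Where copies are as close as Ctsm and Cts3, some reads may be hard to place. How such reads were treated was not given in the sources used here. Values for Ctsm and Cts3 may be uncertain for that reason. Similarity was measured over the promoters only, and the placement of reads was not tested.

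Short motifs were searched on both strands. The TATA-like TATAA was found in 7 of the 9 placental promoters, and in 21.9% of all promoters. These counts take a match on either strand and at any place in the promoter. On the gene's strand it was found in 3 genes, at -28 from the start in Ctsll3, -238 and -27 in Ctsm and -25 in Cts3. In Ctsr (-162), Cts6 (-155), Cts7 (-81) and Ctsq (-163 and -56) it was found on the other strand only. CCAAT was found in 8 of 9, and in 38.2% of all promoters. The AP-2 motif GCCNNNGGC and AGATAA, a form of the GATA motif, are named for factors of trophoblast. They were found in 0 of 9, and in 19.9% and 9.65% of all promoters. Other forms of the GATA motif were not searched, so 0 of 9 does not show that GATA sites are absent. A pair of further motifs was picked after the sequences had been read. The motif ATTTAAA was found in 7 of 9, starting 30 bases before the start of Ctsj and Cts8 and 46 and 49 bases before those of Ctsr and Cts6, and in 5.01% of all promoters. The longest run shared by at least 4 placental promoters, TAATCCAGTCACCA, has 14 bases and was found in Ctsj, Ctsr, Cts6 and Cts8. These 4 were the only promoters of the 21263 that held it, counted on either strand. TTATAA holds TATAA on both strands. None of these 6 motifs was found in the Ctsl window, which lies inside the gene. These letters are a description of sequence and not of binding. G and C made up 42.3% to 53.0% of the placental promoters, against a median of 56.3% over all promoters. The part of base composition in the motif counts was not tested.

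The cluster carried a broad field of weak H3K9me3 peaks in both lists, and peaks covered more of it in the deleted list. Deleted-list peaks covered 34.2% of it (267.5 kb) and control peaks 24.6% (192.6 kb), a deleted-to-control ratio of 1.39. The number of peaks was almost the same, so the additional bases lay in wider peaks. Median width was 1400 bp in the deleted list and 1149 bp in the control list, and 25 and 15 peaks were 3 kb or wider. Of the deleted-list peaks, 14 (10.7%) spanned 2 or more control peaks. Of the control peaks, 7 (5.38%) spanned 2 or more deleted-list peaks. Over all chromosomes these shares were 2.47% and 3.40%.

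**Figure D1:**
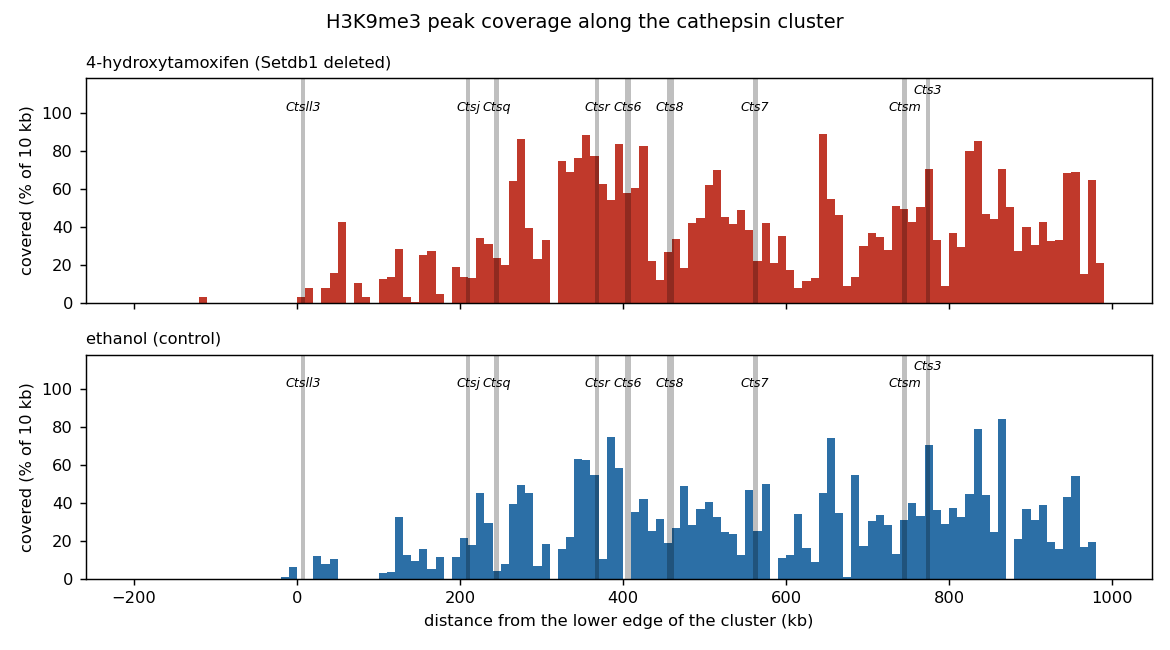
Percent of each 10 kb covered by H3K9me3 peaks, along the cluster and 200 kb on either side, in cells given 4-hydroxytamoxifen (upper panel) and ethanol (lower panel). Grey bands mark the 9 placental genes, and the x axis gives distance from the lower edge of the cluster in kb. A run of high bars surrounds Ctsr and Cts6 in the upper panel, and peaks are sparse left of Ctsj in both panels.

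Part of the mark was in place in both lists. They shared 107.2 kb of the cluster, which was 40.1% of the deleted-list bases and 55.7% of the control bases. A further 160.3 kb was covered by deleted-list peaks alone and 85.4 kb by control peaks alone. Of the 131 deleted-list peaks, 88 (67.2%, exact Clopper-Pearson interval 58.4 to 75.1%) met a control peak. Of the 130 control peaks, 99 (76.2%, 67.9 to 83.2%) met a deleted-list peak. The intervals cover counting error only. On all of chromosome 13 the shares of peaks with a partner were 50.2% and 56.2%. Shared bases on chromosome 13 were 40.7% of the deleted-list bases and 45.5% of the control bases. In the equally long region above the cluster they were 57.6% and 68.0%. Median width on chromosome 13 was 865 bp in the deleted list and 895.5 bp in the control list. The part of peak width and density in these shares was not tested.

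The direction of the difference depended on the confidence of the peaks. Only 9 deleted-list peaks and 26 control peaks of the cluster reached the authors' −log10 q of 2. Those peaks covered 2.89% of the cluster in the deleted list and 6.29% in the control list, the opposite order. Over all chromosomes 11.5% of deleted-list peaks and 18.8% of control peaks reached that value. The greater coverage in the deleted list therefore consisted of peaks with −log10 q between 1 and 2, which made up 122 of 131. With the same number of peaks in both lists the cluster stood at 34.1% and 24.6%. Sequencing depth is unknown, and its part in these differences was not tested.

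**Figure D2:**
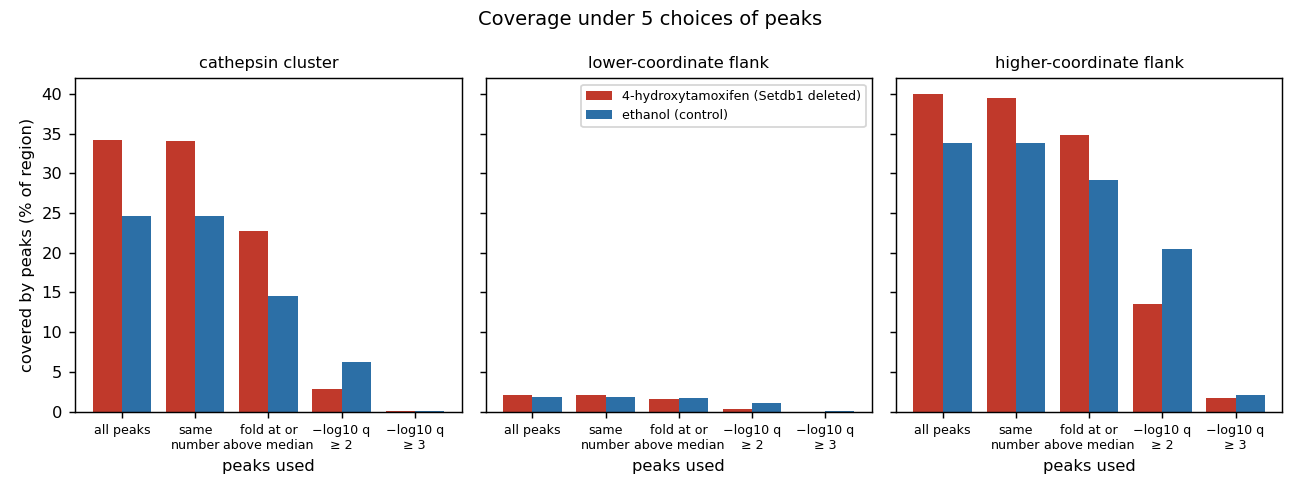
Percent of the cluster and of a region of equal length on either side covered by peaks, with all peaks, the same number of peaks in both lists, peaks whose fold was at least the median of their list, and peaks past −log10 q of 2 or 3. Red bars are cells given 4-hydroxytamoxifen and blue bars cells given ethanol, with 1 library each. In the cluster the red bar is taller with all peaks (34.2% and 24.6%) and shorter at −log10 q of 2 or more (2.89% and 6.29%).

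Within the cluster, the genes themselves differed more than the space between them, mostly through Ctsr and Cts6. Peaks covered 40.3% of the 55.1 kb of placental gene bodies in the deleted list and 17.7% in the control list. Outside these genes they covered 33.8% and 25.2%. The genes were thus the more covered part in the deleted list and the less covered part in the control list. Without Ctsr and Cts6 the gene bodies stood at 29.4% and 19.3%, which is below the space around the genes in both lists. Their difference was then 10.1 points, against 8.59 points outside the placental genes. All annotated genes of the cluster were covered at 34.3% and 16.8%, and the space outside them at 34.2% and 26.4%. Past a −log10 q of 2 the 9 placental gene bodies stood at 0% and 2.05%. Of the 9 gene bodies, 6 had more coverage in the deleted list and 2 had less, and that of Ctsll3 had none in either list.

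Gene windows, each the gene plus 5 kb on both sides, showed 7 of the 9 placental members covered more in the deleted list and 2 covered less, where 18.7% of all protein-coding genes were covered more and 16.7% less. Of them, 5 were higher by at least 10 percentage points and 0 lower by as much. Among all protein-coding genes, 2.38% were higher and 2.52% lower by 10 points or more. Among the 2245 genes covered at 10% or more in either list, 23.3% were higher and 24.5% lower. These shares are given beside the counts only, since the contrast was used to choose the genes. The median placental window was covered at 33.4% in the deleted list and 21.3% in the control list, and the median of the 9 differences was 11.5 points. The median difference over all protein-coding genes was 0 points. Neighbouring members share a stretch of chromatin and are not independent.

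**Figure D3:**
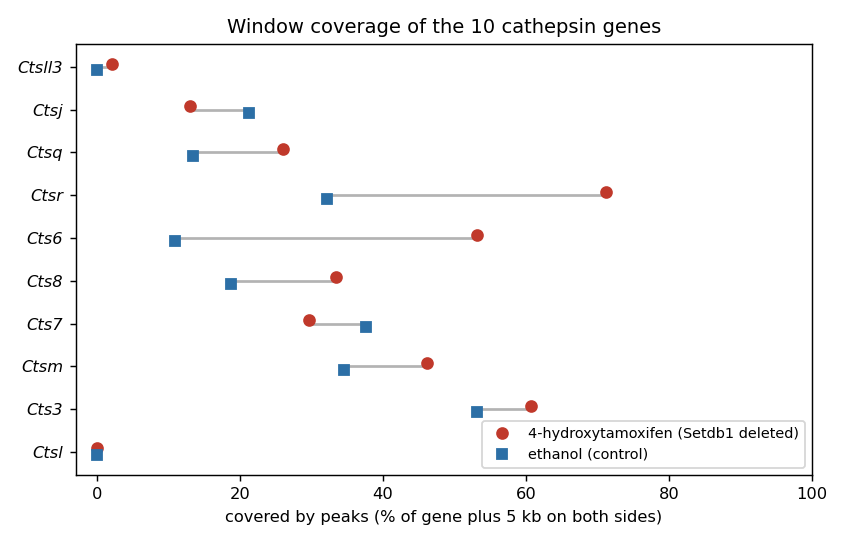
Percent of each gene window (gene plus 5 kb on both sides) covered by peaks in cells given 4-hydroxytamoxifen (red circles) and ethanol (blue squares), 1 library each, with the genes in chromosomal order and Ctsl last. The widest gaps are those of Ctsr (71.2% and 32.1%) and Cts6 (53.1% and 10.9%), and Ctsl is at 0% in both.

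Ctsr and Cts6, adjacent placental cathepsin genes, stood out. The Ctsr window was covered at 71.2% in the deleted list and 32.1% in the control list, a difference of 39.1 points. In the deleted list 1 peak spanned the whole gene (100%), whereas control peaks covered 33.9% of it. The start of Ctsr lay inside a peak in the deleted list and 2.20 kb from the nearest control peak. The Cts6 window was covered at 53.1% in the deleted list and 10.9% in the control list. The body of Cts6 was covered at 59.7% and 0%, and its start lay inside a peak in the deleted list and 2.83 kb from the nearest control peak. The peaks over both windows were weak, with a highest −log10 q of 2.02 at Ctsr and 1.84 at Cts6 in the deleted list. Control peaks there reached 2.01 at Ctsr and 2.36 at Cts6. Among peaks whose fold was at least the median of their list, Ctsr stood at 25.9% and 32.1%, the opposite order, and Cts6 at 42.7% and 6.63%. Past a −log10 q of 2, Ctsr was covered at 13.6% in the deleted list and 10.3% in the control list, and Cts6 at 0% and 2.47%.

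With all peaks, the windows of the trophoblast invasion genes Cts8 and Cts7 differed in opposite ways. Cts8 was covered at 33.4% in the deleted list and 18.7% in the control list, and its body at 33.9% and 13.7%. With 10 kb added in place of 5 kb the Cts8 difference turned to -4.89 points. The Cts7 window was covered at 29.7% and 37.6%. Among peaks of at least the median fold it stood at 11.9% and 0%, and with peaks joined within 5 kb at 64.1% and 55.1%, the same direction as Cts8. The gene body of Cts7 had the other order, at 13.6% in the deleted list and 0% in the control list. Neither promoter was covered in either list.

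Ctsq, the sinusoidal giant cell marker, and its neighbour Ctsj also differed in opposite ways. Ctsq was covered at 26.0% in the deleted list and 13.4% in the control list, with 41.9% and 7.81% of the gene body. At −log10 q of 2 or more the Ctsq window stood at 0% and 10.6%, the opposite order. Ctsj, a placental cathepsin gene, was covered at 12.9% in the deleted list and 21.3% in the control list. Peaks covered 43.7% of the Ctsj promoter window in the deleted list and 0% in the control list, so the window and the promoter differ in direction.

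Ctsm and Cts3, the pair with the most similar promoters, were heavily covered in both lists. The Ctsm window was at 46.1% in the deleted list and 34.6% in the control list. The Cts3 window, the most covered in the control list, was at 60.7% and 53.1%. Among peaks of at least the median fold Cts3 stood at 29.6% and 46.4%, the opposite order. A control peak covered 92.7% of the Ctsm promoter, where the deleted list had 0%. Both lists covered the Cts3 promoter fully, and the body of Cts3 stood at 46.5% and 59.2%. Ctsll3, a cathepsin L-like gene at the lower edge, was nearly bare, at 2.06% in the deleted list and 0% in the control list.

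Promoters of 4 of the 9 placental members met a deleted-list peak and those of 2 met a control peak. Over all promoters of protein-coding genes these shares were 1.83% and 1.82%. A deleted-list peak alone was met by Ctsj, Ctsr and Cts6, and a control peak alone by Ctsm. Over all promoters 1.21% met a deleted-list peak alone and 1.2% a control peak alone. At least 10% of the window was covered in 8 of 9 members in each list, against 8.74% of all genes in the deleted list and 8.39% in the control list. Of all protein-coding genes, 64.6% had no window peak in either list. The members were chosen with the peak lists known, so these shares are given beside the counts only.

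Ctsl, the broadly expressed relative, had no peak in its window in either list. The nearest deleted-list peak lay 84.1 kb from its start and the nearest control peak 44.0 kb. The region of 790.8 kb centred on Ctsl was covered at 11.5% in the deleted list and 10.5% in the control list. The 13 other cathepsin genes examined, among them the lysosomal Ctsb, Ctsd and Ctsk, had no deleted-list peak in their windows, as had 69.9% of all protein-coding genes. Control peaks, which met 29.0% of all windows, were found at 2 of them, with 0.876% of the Ctso window and 1.05% of the Ctss window.

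**Figure D4:**
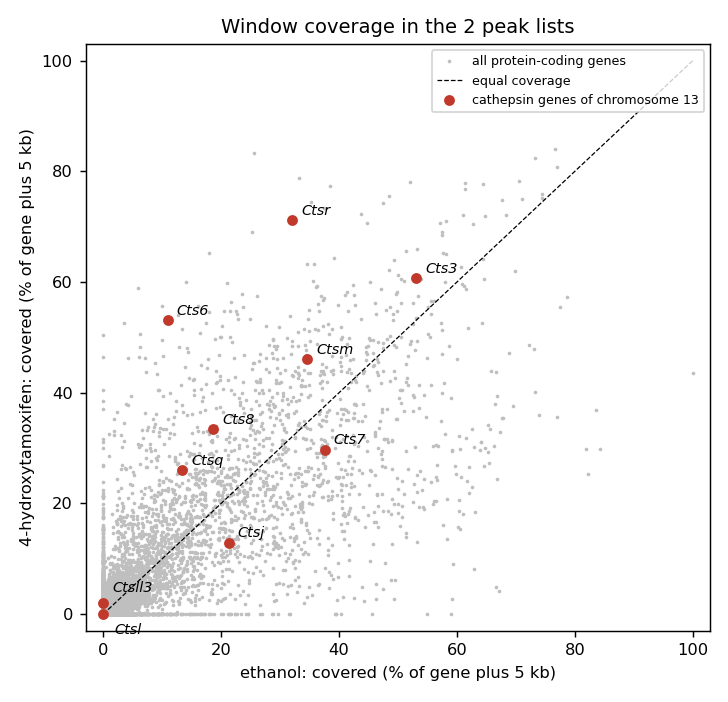
Percent of each gene window covered in cells given 4-hydroxytamoxifen (y axis) and ethanol (x axis), for all 21887 protein-coding genes (grey) and the 10 cathepsin genes of chromosome 13 (red), with the line of equal coverage dashed. Ctsr and Cts6 lie far above the line, Ctsj and Cts7 below it, and Ctsl at the origin.

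Along the chromosome, coverage was low below the cluster and at its lower edge, climbed toward Ctsr, and stayed high beyond the upper edge. The first 2 bins of 100 kb inside the lower edge were covered at 9.47% and 13.8% in the deleted list and at 3.33% and 12.4% in the control list. The equally long region below the cluster, which holds Dapk1, a death-associated protein kinase gene, was covered at 2.03% in the deleted list and 1.79% in the control list. The region above it was covered at 39.9% and 33.8%, a ratio of 1.18. The stretch between the cluster and the Ctsl window was covered at 17.5% and 14.5%, a ratio of 1.21. Chromosome 13 without the cluster had a ratio of 1.11. The log2 ratio of the cluster was 0.47, and 0.32 after subtraction of that of the rest of the chromosome. The order also turned for the higher flank and the stretch toward Ctsl at −log10 q of 2 or more, the higher flank being at 13.5% in the deleted list and 20.4% in the control list.

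The difference inside the cluster was concentrated in a few places. Of 8 bins of 100 kb, 1 was at least 20 points higher in the deleted list, against 0.0367% of 27213 bins in the genome, and 0.467% were lower by as much. That bin, chr13:61100001-61200000, holds Ctsr and part of Cts6 and was covered at 65.1% and 37.2%. Its gain was known when the genes were chosen, so the genome shares in this paragraph are given beside the counts only. The bin with Cts7 was covered at 41.3% and 25.1%, and that with Ctsj and Ctsq at 34.8% and 25.1%. The bin with Ctsm and Cts3 stood at 38.0% and 36.4%, and the bin before it, which holds pseudogenes only, stood at 31.0% and 29.9%. By a bound of 10 points, 2 of the 8 bins were higher in the deleted list, against 1.44% of all bins, and 0 were lower, against 2.02%. Without the bin of Ctsr and Cts6 the cluster was at 29.7% in the deleted list and 22.8% in the control list.

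Between genes, the most covered interval in both lists was that from Ctsr to Cts6, at 64.9% in the deleted list and 46.2% in the control list. The 118.6 kb from Ctsq to Ctsr had the largest difference, at 51.5% and 30.9%. The widest deleted-list peak of the cluster, 9399 bp at chr13:61181534-61190932, lay between Ctsr and Cts6. The widest control peak, 7205 bp at chr13:61566892-61574096, reached from the body of Cts3 across its start. The interval from Ctsj to Ctsq was the only 1 of the 8 with less coverage in the deleted list, at 26.9% and 30.7%.

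The peaks of highest fold, which is the authors' own value for each peak, did not fall on the cathepsin genes. The highest of the deleted list had a fold of 3.44 at chr13:61290655-61291470, 35.3 kb from Cts8, and the second one of 3.26 at chr13:61413052-61413406, 54.9 kb from Cts7. The highest of the control list had a fold of 3.37 at chr13:61412877-61413274, nearly the same place. The remaining control peaks of the top 5 had folds of 3.23 (13.8 kb from Cts7), 3.17 (30.8 kb from Cts7), 3.08 (11.8 kb from Ctsr) and 2.96 (29.4 kb from Ctsq). Those of the deleted list had folds of 3.12 (7.40 kb from Ctsr), 2.96 (1.17 kb from Ctsm) and 2.95 (17.3 kb from Cts8). All 10 had a partner in the other list.

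The other protein-coding genes inside the cluster lay on its sparsely covered side, between Ctsll3 and Ctsj. Ctla2a and Ctla2b encode inhibitors that resemble the propeptide of cathepsins, and Tpbpa is a marker of the spongiotrophoblast. Ctla2b was covered at 9.97% in the deleted list and 2.44% in the control list, and Ctla2a at 2.58% and 10.1%. Tpbpa was covered at 10.4% and 18.9%, and Tpbpb at 7.53% and 4.98%. The windows of Ctla2a and Tpbpa overlap. The gene 4930486L24Rik was covered at 14.7% and 0%, and it lay in the longest peak-free stretch of the cluster in the control list, 62.4 kb, where the deleted list had several peaks. Among pseudogenes, Cts7-ps was covered at 100% in the deleted list and 28.1% in the control list, and Cts8-ps at 38.3% and 29.7%. Ctsm-ps2 was covered at 18.8% and 8.49%, Gm5664 at 57.9% and 47.9%, and Gm18064 at 100% and 87.5%. Gm7756, which lies beside Ctsm, was covered at 0% and 100%.

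Genes within 500 kb outside the cluster differed by side. Below it, Dapk1 was covered at 0.176% in the deleted list and 0% in the control list, and BC051665 at 0% and 5.14%. Above it, Gm21933 was covered at 64.1% and 64.5%, Gm20599 at 75.2% and 74.4%, Gm9595 at 45.9% and 34.8%, and Gm3325 at 38.6% and 33.3%.

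A list of 27 genes picked by name held the cystatin and stefin families, Ctla2a, Ctla2b and the protease gene Lgmn. Some members of these families inhibit cathepsins, and whether each gene of the list does so was not examined. Of these, 15 had no window peak in either list, against 64.6% of all protein-coding genes, 0 were higher by 10 points or more and 1 was lower, which was Cst10 at 23.6% in the deleted list and 34.2% in the control list. The largest excess in the deleted list was that of Ctla2b, at 7.53 points. The median of the list was 0% in both lists of peaks.

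Other gene families on chromosome 13 gave a mixed comparison. The 26 prolactin family genes, most of which are placental hormones in rodents, had a median of 0% in both lists and 0 genes past 10 points in either direction. Prl4a1 was covered at 15.5% in the deleted list and 10.7% in the control list, and Prl8a1 at 11.0% and 15.6%. The 37 Zfp genes had medians of 19.9% and 15.1%, with 4 higher and 1 lower by 10 points, from Zfp595 at 40.6% and 21.7% to Zfp493 at 19.9% and 35.4%. The 36 vomeronasal Vmn1r genes had medians of 22.7% and 11.9%, with 13 higher and 3 lower. Vmn1r-ps103 was covered at 50.4% and 0%, and Vmn1r193 at 24.0% and 61.7%. Over the 829 protein-coding genes of the chromosome 37 were higher and 8 lower by as much. Whether the cathepsin cluster differs from these families was not tested.

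Genes elsewhere whose pair of window coverages lay nearest to the median placental pair (33.4% and 21.3%) came from unrelated families. The 5 nearest were Cyp3a44 at 32.7% in the deleted list and 21.6% in the control list (distance 0.795 points), Krtap16-3 (1.51), Zfp182 (1.91), Olfr480 (1.94) and Gabra4 (1.96). The distance is Euclidean over these 2 values.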

How the data were processed

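H3K9me3 was profiled in 1 library per condition, and the authors deposited 1 list of broad peaks for each. Per the submitters' processing notes, the build was mm10 and the tools included BWA 0.7.17-r1188, ChIPseeker 1.30.3 and MACS2. How MACS2 was set, whether inputs were used and whether samples were pooled is not given in the sources used here. For every peak the authors give a fold enrichment (a linear ratio), a −log10 p-value, a −log10 q-value and a score derived from the last. No file gives read counts, so depth is unknown. The replicate number in the peak names differs from that of the labels, and the condition in the name gave the group.

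Peaks on the autosomes and sex chromosomes were used, and 185 deleted-list and 155 control peaks on scaffolds were set aside. Coverage is the percent of a window lying under peaks, computed with Python 3.11.15, pandas 2.3.3 and numpy 2.4.6, with exact intervals from scipy 1.17.1, alignments from Biopython 1.88 and figures from matplotlib 3.10.9. A global alignment gave promoter identity. Windows were the gene plus 5 kb, partners overlapped by at least 1 bp, and bins that fit whole before the last gene or peak of a chromosome were counted. The coverage code was tested on simulated data. Gene positions and promoters came from RefSeq (GRCm38.p6), which matched all 10 members.

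The members and lists were chosen with earlier results of these data known. Named genes were all 10 members, Ctla2a, Ctla2b, Tpbpa and Tpbpb, other protein-coding genes within 500 kb, the largest rise and fall of each comparison list, the top 5 peaks by fold and the 5 genes nearest in coverage. Cstf genes and Cstad, which are no cystatins, were left out of the list of cystatin and stefin genes. Gene-body levels at other thresholds, values without Ctsr and Cts6, the pseudogenes, the widest peaks and the intervals between members were added after seeing the data. Alternatives covered peak threshold, list size, joining, windows, flanks, bins and overlap.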

Additional observations from a re-analysis of the deposited data

How the results depend on the processing

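Values are the deleted list minus the control list in percentage points unless stated, and coverage was called stable when it kept its direction and moved by at most 1.5 times. Of 72 alternative values for the main results 30 were stable, and of 80 for single genes 34 were. Stricter thresholds leave few peaks, and joining makes longer ones. For the other changes the cause was not tested. The settings for gene bodies and those without Ctsr and Cts6 were chosen after seeing the data. No paired analysis was possible because there was 1 library on either side, and leaving out a replicate was not possible for the same reason. Unknown depth limits every value.

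At −log10 q of 2 or more the difference turned to -3.40 for the cluster, -0.745 for the lower flank, -6.91 for the higher flank, -1.08 between the cluster and Ctsl and -2.05 for gene bodies. Ctsq turned to -10.6, Cts6 to -2.47 and Ctsm to -5.56. The median over placental windows was 0 and 0 genes were 10 points higher. At 3 or more it was 0.0535 for the cluster, -0.102 for the lower flank, -0.284 for the higher flank, -0.318 between the cluster and Ctsl, and 0 for gene bodies and for the median, with 0 genes 10 points higher.

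With the median fold as the bound the median over placental windows was 3.82, gene bodies were at 9.45, the lower flank turned to -0.0500, Ctsr to -6.15, Cts3 to -16.7 and Cts7 to 11.9. With peaks joined within 5 kb gene bodies were at 43.2, the lower flank at 0.869 and the stretch toward Ctsl at 4.66. Joining also turned Cts7 to 8.99 and Cts3 to -0.0901, and it moved Ctsj to -27.1, Ctsq to 79.5, Cts6 to 72.6, Cts8 to 63.8 and Ctsm to 5.13. For the gene without added flanks, Cts7 turned to 13.6 and Cts3 to -12.6. The median was 4.27 with 10 kb added to genes, where Cts8 turned to -4.89, and 20.2 within 3 kb of gene ends. Without Ctsr and Cts6 the median was 7.55 and gene bodies were at 10.1. With flanks of 1 Mb the lower flank was at 0.0242.

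Deleted-list and control peaks with a partner made up 44.4% and 15.4% past a −log10 q of 2, and 0% and 0% past 3, where 1 peak was left in each list. With the median fold as the bound they made up 42.5% and 53.0%. They made up 33.6% and 56.9% when 50% of the peak had to overlap and 93.1% and 99.2% when a peak within 5 kb counted. With peaks joined the control share was 84.8%. Bins 20 points higher numbered 0 past a −log10 q of 2 or of 3, 0 with the median fold as the bound, 3 with bins of 50 kb and 0 with bins of 200 kb. With a call at 10 points there were 2 bins.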
